A study of Mus musculus with 12 samples.

Results

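The 42 genes described here act in mitosis and the G2/M transition. The list is by name, with no measured value in its rule, and the genes were found among the 55401 gene identifiers of the deposited count table through the GENCODE M21 mouse annotation (GRCm38 build). All 42 passed the filter on low counts that left 16135 genes for testing, and the lowest count of any of them in any library was 466. RNA of cultured cells from the subventricular zone, the stem cell layer that lines the lateral ventricles, was sequenced. The 12 libraries fall into 3 groups of 4, all from CD1 mice with no other genotype or treatment given.

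Postnatal OPC (oligodendrocyte precursor cell) libraries came from pups aged 0 to 2 days. Their primary neurospheres, which are floating clusters of dividing stem and progenitor cells, were dissociated and kept as a monolayer for 2 days with FGF and PDGF-AA at 10 ng/mL each. Adult NSC (neural stem cell) libraries came from neurospheres of mice aged 2 months. Postnatal NSC libraries came from neurospheres of pups aged 0 to 2 days. Neurospheres were grown for 6 to 7 days in medium with EGF (20 ng/mL), FGF (10 ng/mL), heparin (2 ug/mL) and B27 (2%). OPC were thus made in culture from neurospheres and were not isolated from the brain. The labels trace replicates to 4 separate litters and do not say which litter is which replicate number.

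A cell enters mitosis when the kinase Cdk1, bound to a B-type cyclin and freed from inhibition by Cdc25 phosphatases, phosphorylates many proteins. Condensins and topoisomerase II then compact the chromosomes, kinesins and spindle factors build the spindle, kinetochores attach chromosomes to it, and the checkpoint holds back the anaphase-promoting complex until attachment is complete. The transcripts of these proteins are known to build up late in S phase and in G2, so in a tissue or culture they mark cycling cells. In bulk RNA fewer cycling cells and less RNA per cell cannot be told apart.

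The libraries held 17226501 to 23651396 gene counts for postnatal OPC, 16756231 to 20064043 for adult NSC, and 38928989 to 54801726 for postnatal NSC, the deepest group. The labelled cell types were checked against markers. The summed level of 10 OPC markers (Pdgfra, Cspg4, Sox10 and others) was 5154 to 10786 CPM in postnatal OPC, 2195 to 2496 CPM in adult NSC and 3033 to 3602 CPM in postnatal NSC, and none of the 10 was at 0 counts in any library. CPM is a count scaled to the TMM-normalised library size. The mean log2 CPM (pseudocount 0.5) of the OPC markers was 8.17 in postnatal OPC, 4.88 in adult NSC and 7.09 in postnatal NSC. The summed level of 10 NSC markers (Nes, Sox2, Vim and others) was 5975 to 9249 CPM in postnatal OPC, 9781 to 10415 CPM in adult NSC and 8398 to 9226 CPM in postnatal NSC, so the OPC cultures also held NSC transcripts. Their mean log2 CPM was 8.12 in postnatal OPC, 7.93 in adult NSC and 8.57 in postnatal NSC, another order than that of the sums. In the edgeR test given below, 5 of these 10 were higher and 3 lower in OPC than in adult NSC. Against postnatal NSC, 3 of them were higher and 5 lower in OPC. All 10 OPC markers were higher in OPC than in adult NSC, while 5 were higher and 0 lower than in postnatal NSC. The shares of all genes tested were 26.3% higher and 24.7% lower against adult NSC, and 22.4% and 22.7% against postnatal NSC. Summed markers of microglia, erythroid cells, endothelium, and pericytes and fibroblasts were at most 2.02, 0.617, 15.9 and 15 CPM in any library, with Cx3cr1 of microglia and Alas2 of erythroid cells at 0 counts in all 12. In OPC, adult NSC and postnatal NSC, mature oligodendrocyte markers had sums of 258 to 531, 145 to 185 and 329 to 902 CPM. In the same order, sums of astrocyte markers were 934 to 1605, 1589 to 1686 and 1387 to 2316 CPM. Those of neuroblasts and neurons were 92.6 to 248, 23.2 to 34.2 and 58.3 to 169 CPM. Ependymal sums were 9.09 to 16.3, 21.6 to 23.7 and 35.9 to 48.6 CPM. The part of these cell types in the group differences was not tested. One library in each postnatal group was the lowest of its group in all 42 genes, postnatal OPC 2 and postnatal NSC 3. Results are given with and without these libraries. These libraries were picked by the levels of the same 42 genes, so leaving them out narrows the spread by choice. Results without them, with their adjusted p-values, describe the remaining libraries and are not independent tests.

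Every one of the 42 genes had its lowest OPC level in postnatal OPC 2 and its lowest postnatal NSC level in postnatal NSC 3. Of all genes tested, 36.7% were lowest in postnatal OPC 2 within its group and 35.8% in postnatal NSC 3 within its group. The summed level of the 42 genes was 5548, 3336, 6379 and 6388 CPM in postnatal OPC 1 to 4, 5991, 6094, 6317 and 5835 CPM in adult NSC 1 to 4, and 4773, 4145, 3080 and 5021 CPM in postnatal NSC 1 to 4. The adult libraries thus lay close together at a high level, above every postnatal NSC library, while the OPC libraries overlapped with both. The mean log2 CPM over the genes (pseudocount 0.5) was 6.63 ± 0.42 in postnatal OPC, 6.83 ± 0.05 in adult NSC and 6.32 ± 0.32 in postnatal NSC (SD, n = 4 each). The median coefficient of variation of the 42 genes was 26.1% in postnatal OPC, 5.68% in adult NSC and 23.0% in postnatal NSC, beside 17.3% in OPC, 7.46% in adult NSC and 19.6% in postnatal NSC for all genes tested. It was 8.69% in OPC without postnatal OPC 2 and 12.1% in postnatal NSC without postnatal NSC 3, beside 10.2% and 14.9% for all genes tested.

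**Figure D1:**
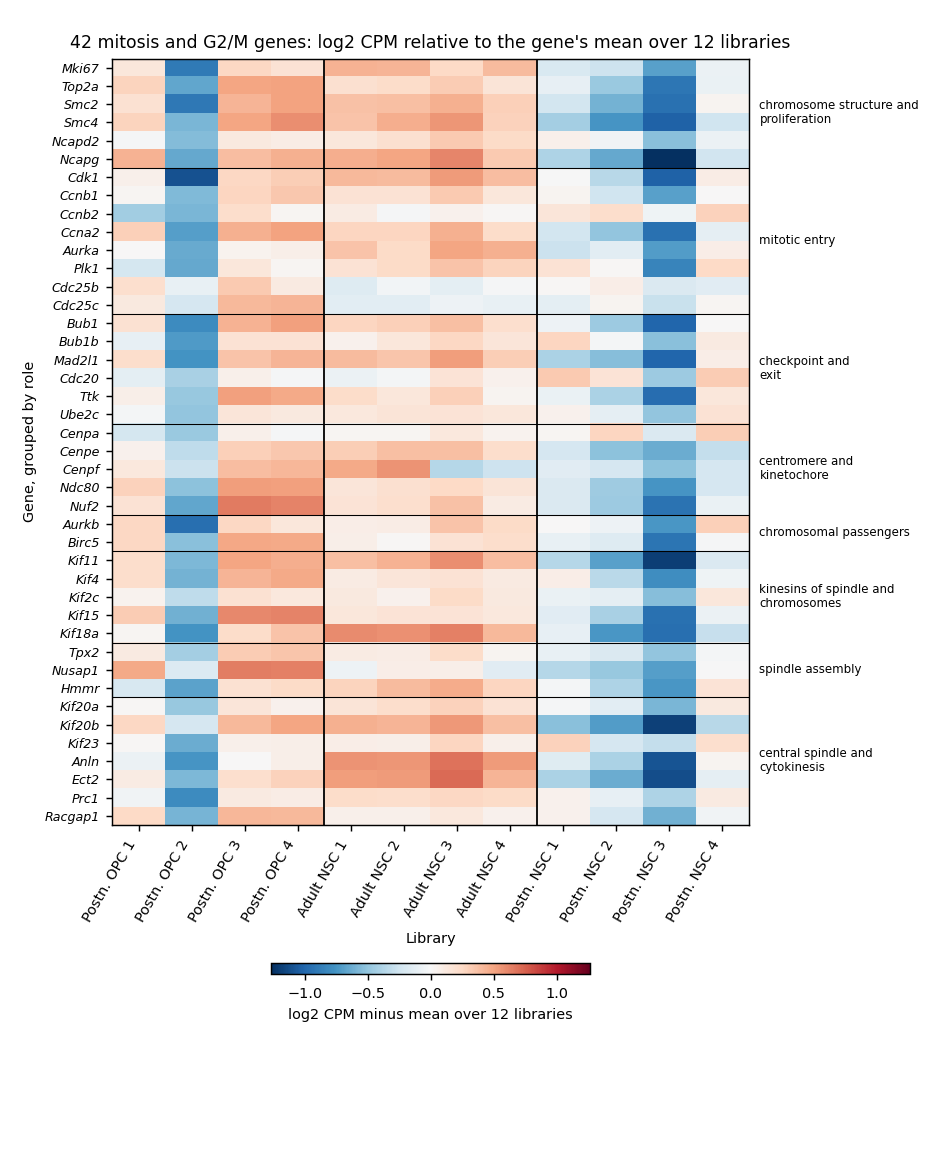
Log2 CPM of each of the 42 genes (rows, grouped by role) in each of the 12 libraries (columns), shown as the difference from the gene's mean over the 12 libraries. Postnatal OPC 2 and postnatal NSC 3 are the lowest of their groups in every row, and the adult NSC columns are nearly alike, with the widest spread in Cenpf.

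The genes are long known to share promoter elements, among them the cell cycle genes homology region (CHR), which the DREAM and MuvB-type complexes bind, and the CCAAT box, which the factor NF-Y binds. RefSeq promoter windows (GRCm38.p6, 250 bases before the annotated start and 50 from it on) were matched by symbol for 36 of the 42 genes, in 38 windows, since Ect2 and Prc1 have more than 1 annotated start. Cdc25c, Tpx2, Aurkb, Ccna2, Smc4 and Kif20a were not matched. Letters were searched on both strands, a palindrome was counted once, and matches to different motifs could overlap. The CHR core TTTGAA was in 76.3% of the members' windows, beside 17.9% of all 32851 windows. Within 50 bases of the start it was in 68.4% of the members' windows, beside 4.94% of all windows. The variant core TTTAAA was in 23.7%, beside 13.2%, and CCAAT was in 73.7%, beside 37.4%. A CHR core of either kind together with CCAAT was in 68.4%, beside 10.7%. An E2F-type motif (TTTCCCGC or TTTGGCGC) was in 10.5%, beside 1.56% of all windows. Of 28 windows of G1/S genes, 10.7% held TTTGAA, 71.4% held CCAAT and 35.7% held the E2F-type motif. A match is a run of letters and not a site shown to be bound.

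The 150 bases upstream of the RefSeq start are printed for the 6 members whose windows held both a CHR core and CCAAT and that had the highest CPM per kb of exon among such members, since these stretches show how the CHR core and CCAAT are spaced. Each is read 5′ to 3′ on the gene's strand, with the annotated start after the last base. Capitals mark the CHR cores TTTGAA or TTTAAA and the CCAAT box, on either strand (TTCAAA or ATTGG where they lie on the other strand). The stretches are Cdc20 chr4:118437344-118437493 (minus strand), Top2a chr11:99024190-99024339 (minus strand), Plk1 chr7:122159285-122159434 (plus strand), Mki67 chr7:135716380-135716529 (minus strand), Ccnb1 chr13:100786487-100786636 (minus strand) and Ube2c chr2:164769779-164769928 (plus strand).
Cdc20: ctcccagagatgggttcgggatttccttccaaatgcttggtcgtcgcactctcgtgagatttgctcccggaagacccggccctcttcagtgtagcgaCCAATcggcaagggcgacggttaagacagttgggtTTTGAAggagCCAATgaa
Top2a: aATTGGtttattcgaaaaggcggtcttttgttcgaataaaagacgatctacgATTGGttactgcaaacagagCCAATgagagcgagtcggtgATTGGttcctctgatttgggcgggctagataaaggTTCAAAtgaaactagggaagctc
Plk1: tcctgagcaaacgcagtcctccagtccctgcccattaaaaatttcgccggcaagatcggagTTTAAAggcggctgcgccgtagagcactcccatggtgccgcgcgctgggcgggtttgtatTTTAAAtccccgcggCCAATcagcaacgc
Mki67: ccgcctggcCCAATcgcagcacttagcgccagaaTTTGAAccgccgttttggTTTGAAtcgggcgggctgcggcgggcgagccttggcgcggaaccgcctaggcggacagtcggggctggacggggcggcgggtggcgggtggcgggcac
Ccnb1: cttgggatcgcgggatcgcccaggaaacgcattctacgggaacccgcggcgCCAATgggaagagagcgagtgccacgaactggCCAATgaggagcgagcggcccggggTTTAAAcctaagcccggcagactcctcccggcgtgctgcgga
Ube2c: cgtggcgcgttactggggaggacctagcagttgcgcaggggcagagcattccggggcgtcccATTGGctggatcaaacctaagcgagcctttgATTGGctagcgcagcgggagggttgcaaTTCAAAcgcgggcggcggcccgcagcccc
TTTGAA began 18 bases upstream of the start in Cdc20, 23 in Top2a and 29 in Ube2c, and TTTAAA began 42 bases upstream in Ccnb1. Mki67 held its cores farther from the start, and Plk1 held only the variant core in this stretch. Among the 27 members with TTTGAA in the window, 6 rose in postnatal OPC against postnatal NSC and 10 in adult against postnatal NSC. Among the 9 matched members without it, 3 rose in each comparison. Of all genes tested, 22.4% rose in postnatal OPC and 25.2% in adult NSC against postnatal NSC, and nothing about the motif is read from these counts.

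**Figure D2:**
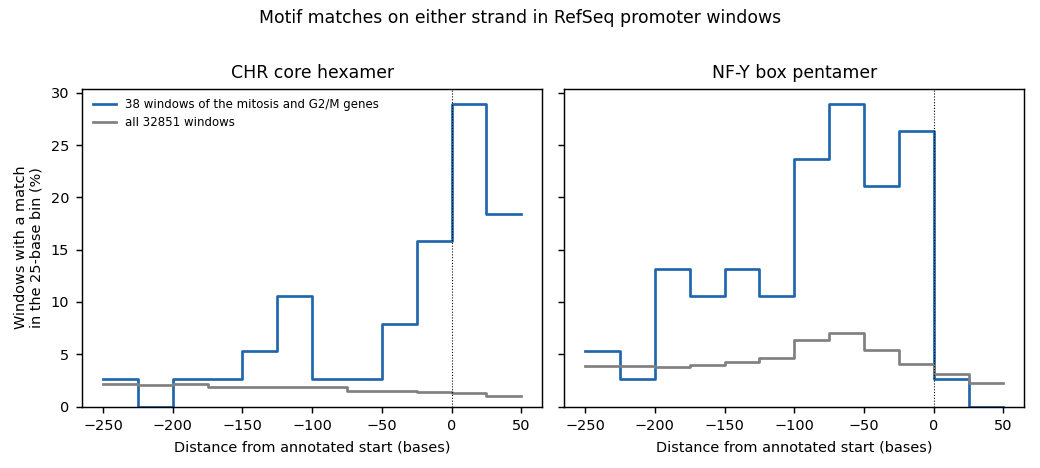
Share of promoter windows (y axis, %) that hold the CHR core hexamer (left) or the NF-Y box pentamer (right) in each 25-base bin, by distance from the annotated start (x axis, bases), for the 38 windows of the 36 matched genes among the 42 (blue) and all 32851 RefSeq windows (grey). The CHR core is highest in the first 25 bases after the start, at 28.9% of the members' windows and 1.31% of all windows, and the NF-Y box is highest between 75 and 50 bases before it, at 28.9% and 6.99%.

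Whether the OPC monolayers and the neurospheres of both ages differ in these transcripts was addressed by 3 comparisons, each tested with edgeR's quasi-likelihood test in one fit of all 12 libraries, with Benjamini-Hochberg adjustment over the 16135 genes and a call at an adjusted p under 0.05. The fit takes one spread per gene from all groups. The median coefficient of variation of the 42 genes was 26.1% in OPC, 5.68% in adult NSC and 23.0% in postnatal NSC. Each SE and p thus rests on a pooled spread, and not on that of the 2 groups compared. In postnatal OPC against postnatal NSC, 11 of the 42 genes rose, none fell and 31 were not called, while 45.1% of all genes tested were called, 22.4% higher and 22.7% lower. The share of the 42 that rose was thus near the share of all genes. Their median log2 fold change was 0.33 (range -0.32 to 0.92), beside -0.01 for all genes, 35 of the 42 were above 0, and 16 had an unadjusted p under 0.05, all of them higher. DESeq2 called 12 higher and 0 lower. The genes that rose were Kif20b, Smc4, Ncapg, Nusap1, Kif11, Nuf2, Kif15, Ndc80, Ccna2, Ect2 and Cenpe. In Kif20b alone did the 4 OPC libraries lie above the 4 postnatal NSC libraries, while 18% of all genes tested had OPC libraries all above and 16.9% all below. The number that rose was 6, 25, 5 and 5 when OPC 1, 2, 3 or 4 was left out, 5 without postnatal NSC 2, 7 without postnatal NSC 3 and 7 without any one of adult NSC 1 to 4. In the fit without OPC 2, 3592 of 16404 genes tested rose. With only these 2 groups fitted, 4 of the 42 rose (Cenpe, Kif20b, Nusap1 and Smc4), beside 2843 of 16590 genes tested. Without both OPC 2 and postnatal NSC 3, 26 genes rose, the 11 among them, and Cdc20 and Cenpa fell, as these 2 did without postnatal NSC 3 alone, while Ccnb2 fell without OPC 3. Of 16157 genes tested without both, 4265 rose and 4526 fell.

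In adult NSC against postnatal NSC, 15 of the 42 rose, none fell and 27 were not called, while 53.1% of all genes tested were called, 25.2% higher and 27.9% lower. Their median log2 fold change was 0.44 (range -0.12 to 1.11), beside -0.03 for all genes, 37 of the 42 were above 0, and 21 had an unadjusted p under 0.05, all of them higher. DESeq2 called 19 higher and 0 lower. The genes that rose were Kif20b, Ect2, Ncapg, Kif18a, Kif11, Smc4, Anln, Mad2l1, Smc2, Cenpe, Ccna2, Mki67, Aurka, Ndc80 and Hmmr. All 4 adult libraries lay above all 4 postnatal NSC libraries in 28 of the 42 genes and below them in none, while 27.2% of all genes tested had adult libraries all above and 26.0% all below. The number that rose was 26 without OPC 2, a library of neither group compared, and 11 to 17 without any one of the other 11 libraries. In the fit without OPC 2, 4222 of 16404 genes tested rose. With only these 2 groups fitted, 24 of the 42 rose, beside 4087 of 16227 genes tested. Without both OPC 2 and postnatal NSC 3, 26 genes rose, the 15 among them, and Cdc20 fell. Of 16157 genes tested without both, 4494 rose and 4869 fell.

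In postnatal OPC against adult NSC, none of the 42 rose, Anln and Aurka fell and 40 were not called, while 51.0% of all genes tested were called, 26.3% higher and 24.7% lower. Their median log2 fold change was -0.20 (range -0.74 to 0.44), beside 0.01 for all genes, and 12 of the 42 were above 0. An unadjusted p under 0.05 was seen in 7 genes, Cdc25b, Cdc25c and Nusap1 (higher) and Anln, Aurka, Ect2 and Kif18a (lower). DESeq2 called 0 higher and 2 lower. The 4 OPC libraries lay below the 4 adult libraries in 10 genes (Anln, Aurka, Cdk1, Ect2, Hmmr, Kif18a, Kif20a, Ncapd2, Plk1 and Prc1) and above them in none, while 28.7% of all genes tested had OPC libraries all below and 27.9% all above. Without OPC 2, Cdc25b, Cdc25c and Nusap1 rose and only Anln fell, beside 4006 higher and 3781 lower of 16404 genes tested. The number that fell was also 1 without OPC 1 or adult NSC 1, 3 or 4, while it was 3 without postnatal NSC 4, 4 without OPC 4 and 5 without postnatal NSC 3, and Nusap1 rose without postnatal NSC 3 or 4. Without both OPC 2 and postnatal NSC 3, 8 rose (Birc5, Cdc25b, Cdc25c, Kif15, Kif4, Ndc80, Nusap1 and Racgap1) and 5 fell (Anln, Aurka, Ect2, Plk1 and Prc1). Of 16157 genes tested without both, 4531 rose and 4448 fell. The 3 comparisons share libraries with each other, so their fold changes are given side by side and are not independent.

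**Figure D3:**
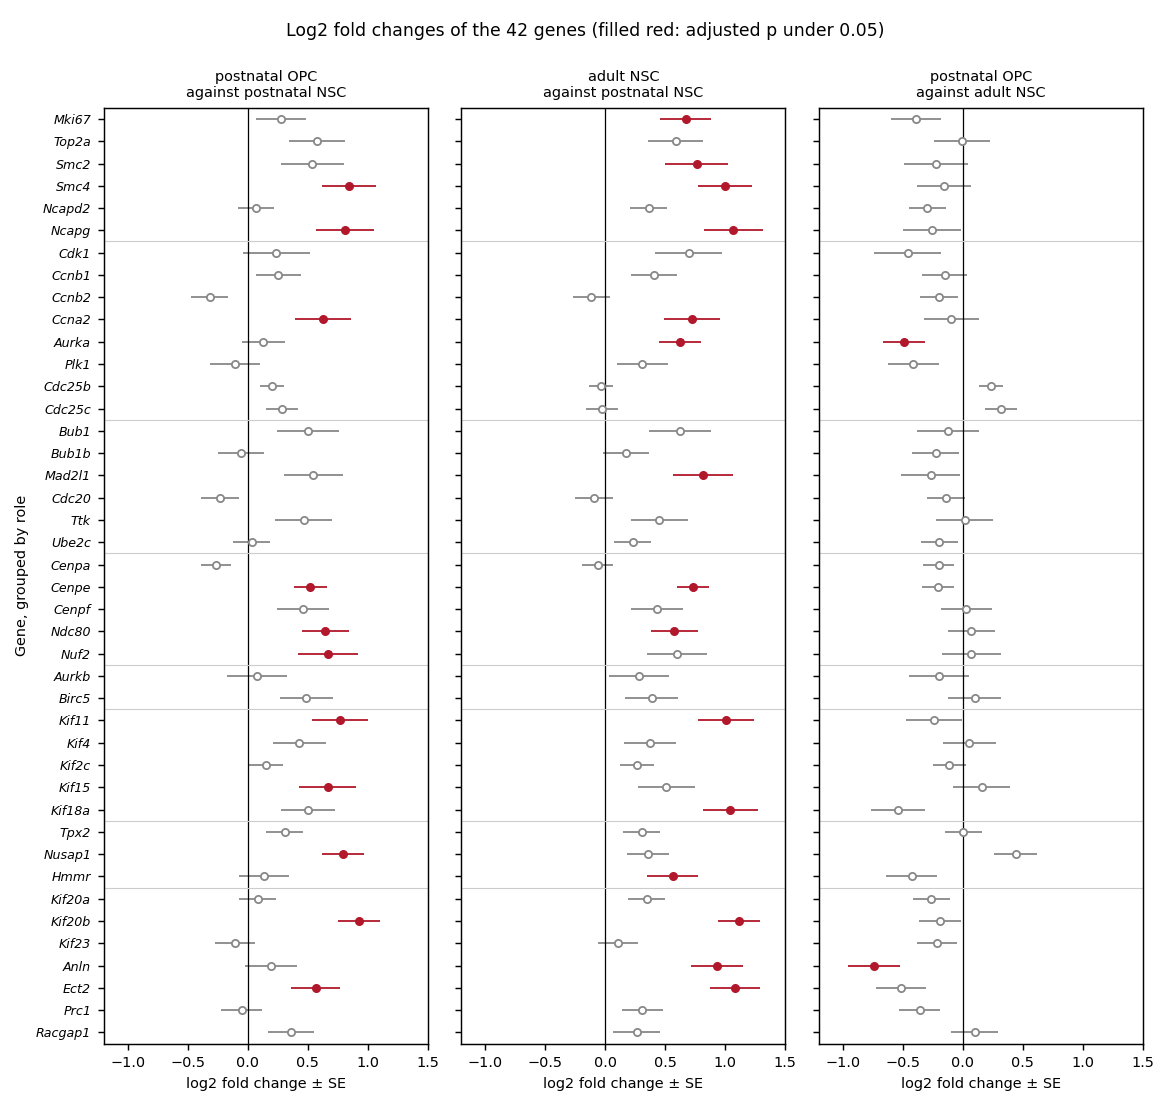
Log2 fold change ± SE of each of the 42 genes, grouped by role, in postnatal OPC against postnatal NSC (left), adult NSC against postnatal NSC (middle) and postnatal OPC against adult NSC (right), where filled red points passed an adjusted p of 0.05. Red points are on the right of 0 in the first and second panels (11 and 15 genes), and in the third only Anln and Aurka are red, on the left.

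Genes of chromosome structure were among the most raised, with the condensin subunits Smc4 and Ncapg called higher in both OPC and adult NSC against postnatal NSC. Of 6 genes with this role, 2 rose in OPC and 4 in adult NSC (Mki67 and Smc2 in addition). Smc4 (ENSMUSG00000034349.14, chr3:69004738-69034623) encodes a core ATPase of condensin. Smc4 was at 203, 112, 237 and 250.5 CPM in postnatal OPC 1 to 4, 214, 229, 245 and 204 CPM in adult NSC 1 to 4, and 124, 99.9, 82.1 and 140.2 CPM in postnatal NSC 1 to 4. OPC 2 lay among the postnatal NSC libraries and the other OPC libraries above them, while all adult libraries were above them. Smc4 rose in OPC against postnatal NSC (log2 fold change 0.84 ± 0.22 SE, edgeR adjusted p = 0.00858) and in adult against postnatal NSC (log2 fold change 1.00 ± 0.22 SE, edgeR adjusted p = 0.0029). Ncapg (ENSMUSG00000015880.13, chr5:45669919-45700546) encodes a non-SMC subunit of condensin I. Ncapg was at 77.9, 36.6, 75.3 and 78.4 CPM in postnatal OPC 1 to 4, 78.6, 81.3, 87.6 and 72.2 CPM in adult NSC 1 to 4, and 43.7, 36.5, 23.9 and 48.6 CPM in postnatal NSC 1 to 4. Again OPC 2 alone of the OPC libraries overlapped with postnatal NSC, and the adult libraries did not. Ncapg rose in OPC (log2 fold change 0.81 ± 0.24 SE, edgeR adjusted p = 0.0165) and in adult NSC (log2 fold change 1.07 ± 0.24 SE, edgeR adjusted p = 0.00329). The OPC call was lost without OPC 1 (edgeR adjusted p = 0.0546) and with only OPC and postnatal NSC fitted (0.0512).

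Mki67 (ENSMUSG00000031004.8, chr7:135689784-135716361) encodes Ki-67, which coats mitotic chromosomes and is the common marker of proliferating cells. Mki67 was at 508, 248, 551 and 522 CPM in postnatal OPC 1 to 4, 624, 621, 548 and 606 CPM in adult NSC 1 to 4, and 401, 383, 286 and 438 CPM in postnatal NSC 1 to 4. Every adult library exceeded every postnatal NSC library, and OPC 2 was below every other library. Mki67 rose in adult against postnatal NSC (log2 fold change 0.67 ± 0.21 SE, edgeR adjusted p = 0.0182) and was not called in OPC against postnatal NSC (log2 fold change 0.28 ± 0.21 SE, edgeR adjusted p = 0.299) unless OPC 2 was left out (log2 fold change 0.46, edgeR adjusted p = 0.00948). Top2a (ENSMUSG00000020914.17, chr11:98992943-99024189) encodes the topoisomerase that untangles sister chromatids. Top2a was at 622, 323, 720.05 and 724 CPM in postnatal OPC 1 to 4, 587, 599.5, 637 and 573 CPM in adult NSC 1 to 4, and 476, 369.6, 272 and 479.9 CPM in postnatal NSC 1 to 4. OPC 1, 3 and 4 and the adult libraries were all above the highest postnatal NSC library. Neither difference passed the test, with log2 fold change 0.58 ± 0.23 SE, edgeR adjusted p = 0.0592 in OPC and log2 fold change 0.59 ± 0.23 SE, edgeR adjusted p = 0.0506 in adult NSC. The OPC difference passed without OPC 2 (edgeR adjusted p = 0.00294), as did the adult one (edgeR adjusted p = 0.00954 without OPC 2 and 0.049 without postnatal NSC 1). Both differences also passed in DESeq2, and the adult one with only adult and postnatal NSC fitted. Smc2, the partner of Smc4, averaged 166 ± 59.96 CPM in postnatal OPC, 193 ± 8.23 CPM in adult NSC and 114 ± 32.97 CPM in postnatal NSC (SD, n = 4 each, as in all means below), and rose in adult NSC (log2 fold change 0.76 ± 0.27 SE, edgeR adjusted p = 0.0295). That call was lost without postnatal NSC 2 or 3 or adult NSC 1, 2 or 3, with edgeR adjusted p-values of 0.0535 to 0.0908. Ncapd2, another condensin I subunit, averaged 218 ± 42.99 CPM in postnatal OPC, 268 ± 14.8 CPM in adult NSC and 209 ± 34.7 CPM in postnatal NSC and was called in neither comparison. Without both low libraries, Mki67, Smc2 and Top2a also rose in OPC, and Top2a and Ncapd2 in adult NSC. Ncapd2 rose in adult NSC without OPC 2 alone as well, and with only adult and postnatal NSC fitted.

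**Figure D4:**
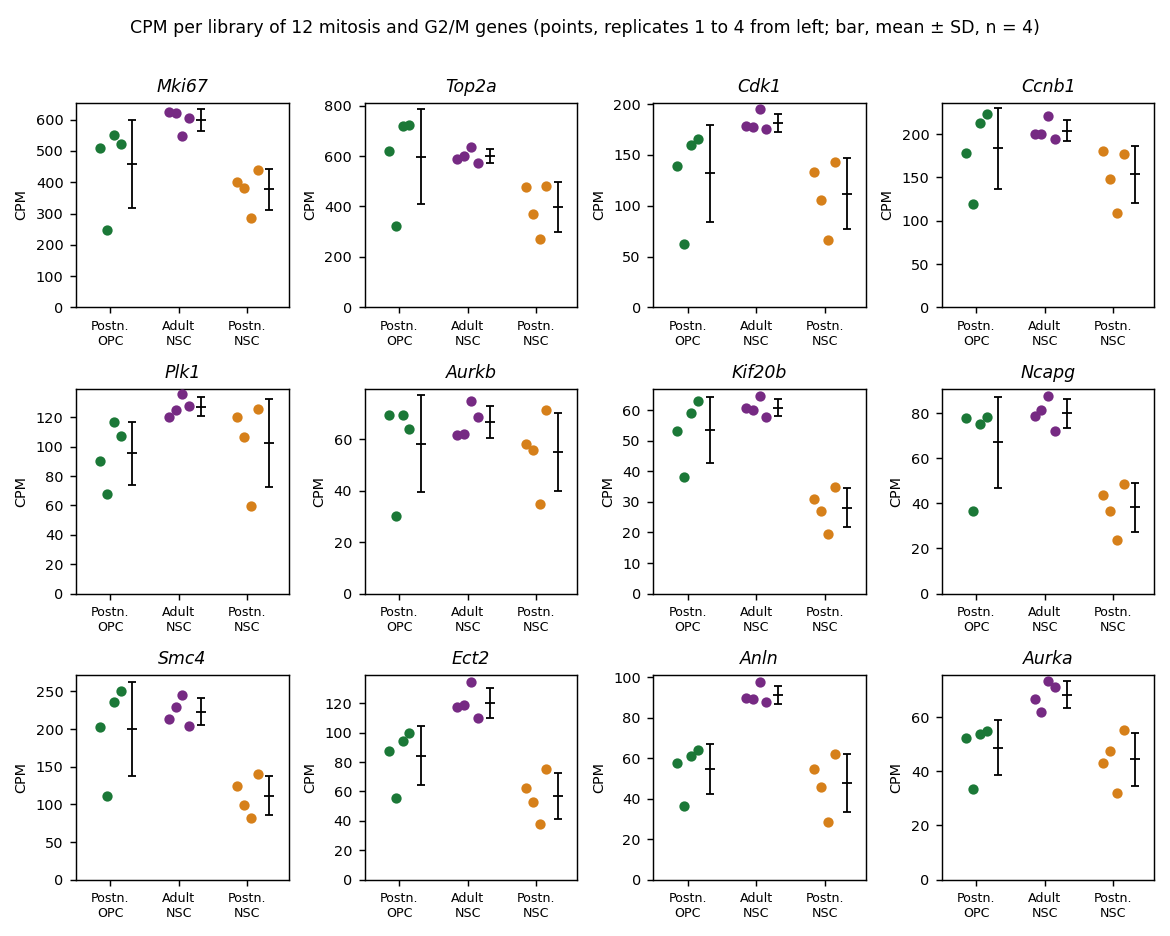
CPM of 12 of the 42 genes in each library (points, replicates 1 to 4 from the left) with the mean ± SD of 4 libraries (bars), for postnatal OPC (green), adult NSC (purple) and postnatal NSC (orange), on linear axes from 0. The adult points cluster tightly, and OPC 2 and postnatal NSC 3 are the lowest points of their groups in each panel.

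The kinases, cyclins and phosphatases of mitotic entry had a median log2 fold change of 0.22 in OPC and 0.36 in adult NSC against postnatal NSC, beside 0.56 and 0.72 for chromosome structure. Of 8 genes, Ccna2 rose in OPC and in adult NSC against postnatal NSC, and Aurka rose in adult NSC. Cdk1 (ENSMUSG00000019942.13, chr10:69335146-69352938) encodes the kinase that drives entry. Cdk1 was at 139.5, 62.4, 160.1 and 166 CPM in postnatal OPC 1 to 4, 178, 177, 195 and 175 CPM in adult NSC 1 to 4, and 134, 105, 65.8 and 143 CPM in postnatal NSC 1 to 4. The adult libraries were above all others and OPC 2 was the lowest of the 12. Its difference in OPC was not called (log2 fold change 0.24 ± 0.28 SE, edgeR adjusted p = 0.512). Nor was that in adult NSC (log2 fold change 0.70 ± 0.28 SE, edgeR adjusted p = 0.0524), where the call was made without OPC 2 (edgeR adjusted p = 0.0106) or postnatal NSC 4 (0.0449). DESeq2 and the edgeR fit of only adult and postnatal NSC made that call too. Ccnb1 (ENSMUSG00000041431.16, chr13:100778650-100786570) encodes cyclin B1. Ccnb1 was at 179, 119.7, 213 and 224 CPM in postnatal OPC 1 to 4, 199.9, 199.8, 222 and 194 CPM in adult NSC 1 to 4, and 181, 148, 109 and 177 CPM in postnatal NSC 1 to 4. OPC and postnatal NSC libraries overlapped widely, and the adult libraries lay just above postnatal NSC. Neither difference was called (log2 fold change 0.26 ± 0.19 SE, edgeR adjusted p = 0.289 in OPC, and log2 fold change 0.41 ± 0.19 SE, edgeR adjusted p = 0.0866 in adult NSC). The adult one was called without OPC 2 (edgeR adjusted p = 0.0397) and with only adult and postnatal NSC fitted. Reads of Ccnb1 are uncertain, since 23.4% of its 50-base stretches are shared with other genes, chiefly the pseudogene Ccnb1-ps.

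Plk1 (ENSMUSG00000030867.7, chr7:122159439-122169873) encodes the polo-like kinase that acts at centrosomes and kinetochores. Plk1 was at 90.6, 67.6, 117 and 107 CPM in postnatal OPC 1 to 4, 120.05, 125, 136 and 128 CPM in adult NSC 1 to 4, and 119.99, 106, 59.3 and 125 CPM in postnatal NSC 1 to 4. Postnatal NSC 1, 2 and 4 were within or above the OPC range, and all OPC libraries were below all adult ones. It was called in none of the comparisons (log2 fold change -0.11 ± 0.21 SE, edgeR adjusted p = 0.71 in OPC against postnatal NSC, log2 fold change 0.31 ± 0.21 SE, edgeR adjusted p = 0.235 in adult against postnatal NSC, and log2 fold change -0.41 ± 0.21 SE, edgeR adjusted p = 0.122 in OPC against adult NSC). It fell in OPC against adult NSC without postnatal NSC 3 (edgeR adjusted p = 0.025), without both low libraries (0.0252) and with only these 2 groups fitted (0.0439). Aurka (ENSMUSG00000027496.15, chr2:172356190-172370535) encodes the centrosomal Aurora kinase. Aurka was at 52.4, 33.4, 53.8 and 55 CPM in postnatal OPC 1 to 4, 66.8, 61.8, 73.5 and 71.1 CPM in adult NSC 1 to 4, and 43.2, 47.4, 31.9 and 55.1 CPM in postnatal NSC 1 to 4. The adult libraries were above every postnatal library of either kind. Aurka rose in adult against postnatal NSC (log2 fold change 0.62 ± 0.18 SE, edgeR adjusted p = 0.0108) and fell in OPC against adult NSC (log2 fold change -0.49 ± 0.18 SE, edgeR adjusted p = 0.0348). The fall was not called without adult NSC 1, 3 or 4 or OPC 1 or 2, with edgeR adjusted p-values of 0.0509 to 0.081. Nor was it called under library totals in place of TMM (edgeR adjusted p = 0.0557).

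Cyclin A2, encoded by Ccna2 and active from S phase to early mitosis, averaged 249 ± 79.3 CPM in postnatal OPC, 266 ± 18.6 CPM in adult NSC and 161 ± 37.9 CPM in postnatal NSC. It rose in OPC (log2 fold change 0.63 ± 0.23 SE, edgeR adjusted p = 0.043) and in adult NSC (log2 fold change 0.72 ± 0.23 SE, edgeR adjusted p = 0.0201). The OPC call was lost under 13 of 20 alternatives (edgeR adjusted p up to 0.12), among them leaving out any one library other than OPC 2 and postnatal NSC 4. The adult call was lost without adult NSC 3 or postnatal NSC 2 or 3 (edgeR adjusted p of 0.0501 to 0.0618). Ccnb2, the gene of the other main B-type cyclin, averaged 38.5 ± 10.1 CPM in postnatal OPC, 44.1 ± 1.51 CPM in adult NSC and 47.9 ± 4.74 CPM in postnatal NSC. The gene was not called (log2 fold change -0.32 ± 0.15 SE, edgeR adjusted p = 0.113 in OPC, and log2 fold change -0.12 ± 0.15 SE, edgeR adjusted p = 0.533 in adult NSC) except that it fell in OPC without OPC 3. The phosphatases Cdc25b and Cdc25c, which remove inhibitory phosphates from Cdk1, had the smallest adult differences of the 42 genes, with log2 fold changes of -0.03 ± 0.10 and -0.03 ± 0.13 (SE). In OPC against postnatal NSC the log2 fold changes were 0.20 ± 0.10 for Cdc25b and 0.29 ± 0.13 for Cdc25c, with edgeR adjusted p-values of 0.121 and 0.0936. Without both low libraries, Ccnb1, Cdc25b, Cdc25c and Cdk1 also rose in OPC, and Ccnb1 and Cdk1 in adult NSC.

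None of the 6 genes of the spindle checkpoint and mitotic exit rose in OPC against postnatal NSC, and Mad2l1 alone rose in adult NSC. Without both low libraries, Bub1, Mad2l1 and Ttk rose in OPC (edgeR adjusted p of 0.00271, 0.00347 and 0.0204), as they did without OPC 2 alone, and Bub1 also rose in adult NSC (0.00569), as it did without OPC 2, in DESeq2 and with only 2 groups fitted. Mad2l1, whose protein is part of the inhibitor of the anaphase-promoting complex, averaged 71.8 ± 22.6 CPM in postnatal OPC, 86.5 ± 5.56 CPM in adult NSC and 49.2 ± 15.1 CPM in postnatal NSC. It rose in adult NSC (log2 fold change 0.81 ± 0.25 SE, edgeR adjusted p = 0.0155) under all 20 alternatives. The checkpoint kinases Bub1 and Ttk had log2 fold changes of 0.50 ± 0.26 and 0.47 ± 0.24 in OPC, and of 0.62 ± 0.26 and 0.45 ± 0.24 in adult NSC, none of them called (edgeR adjusted p of 0.0594 to 0.135). Bub1b, the gene of the checkpoint protein BubR1, averaged 109 ± 28.4 CPM in postnatal OPC, 128 ± 7.43 CPM in adult NSC and 113 ± 24.9 CPM in postnatal NSC. Cdc20, the activator of the anaphase-promoting complex, was at 59.0 CPM per kb of exon in postnatal OPC, 65.1 in adult NSC and 69.4 in postnatal NSC. It was at 109, 89.3, 124 and 118 CPM in postnatal OPC 1 to 4, 113, 117, 134 and 123 CPM in adult NSC 1 to 4, and 149.7, 134, 86.2 and 148 CPM in postnatal NSC 1 to 4. Only postnatal NSC 3 kept the postnatal NSC range from lying above the OPC range. Cdc20 was not called (log2 fold change -0.23 ± 0.16 SE, edgeR adjusted p = 0.247 in OPC, and log2 fold change -0.09 ± 0.16 SE, edgeR adjusted p = 0.642 in adult NSC). Without postnatal NSC 3 and OPC 2 it fell in OPC against postnatal NSC (log2 fold change -0.30 ± 0.08 SE, edgeR adjusted p = 0.00776) and in adult against postnatal NSC (-0.26 ± 0.07, edgeR adjusted p = 0.0122). Ube2c, the ubiquitin-conjugating enzyme of that complex, averaged 95.7 ± 18.2 CPM in postnatal OPC, 109.5 ± 1.47 CPM in adult NSC and 93.6 ± 18.1 CPM in postnatal NSC and was not called in either comparison.

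At the centromere and kinetochore, 3 of 5 genes rose in OPC (Nuf2, Ndc80 and Cenpe) and 2 in adult NSC (Cenpe and Ndc80). Nuf2 (ENSMUSG00000026683.14, chr1:169497934-169531464) encodes a subunit of the Ndc80 complex that binds microtubules. Nuf2 was at 84.8, 47.3, 118 and 115 CPM in postnatal OPC 1 to 4, 83.98, 86.4, 96.3 and 80.5 CPM in adult NSC 1 to 4, and 65.7, 54.5, 39.1 and 70.4 CPM in postnatal NSC 1 to 4. OPC 3 and 4 were the highest of the 12 libraries, and OPC 2 lay within postnatal NSC. Nuf2 rose in OPC (log2 fold change 0.67 ± 0.25 SE, edgeR adjusted p = 0.045), a call lost under 14 of 20 alternatives with edgeR adjusted p-values of 0.0523 to 0.129, among them leaving out any one of OPC 1, 3 and 4, postnatal NSC 1, 2 and 3 and adult NSC 1 to 4. In adult NSC it was not called (log2 fold change 0.60 ± 0.25 SE, edgeR adjusted p = 0.061), but rose there without both low libraries. It also rose there without OPC 2 alone, in DESeq2 and with only adult and postnatal NSC fitted. Ndc80 averaged 53.8 ± 15.6 CPM in postnatal OPC, 51.2 ± 1.62 CPM in adult NSC and 34.4 ± 5.88 CPM in postnatal NSC. Its level rose in OPC (log2 fold change 0.64 ± 0.20 SE, edgeR adjusted p = 0.0177) and in adult NSC (log2 fold change 0.57 ± 0.20 SE, edgeR adjusted p = 0.0267), each call lost under 4 of 20 alternatives. Without OPC 3, OPC 4 or postnatal NSC 2 the OPC call was lost (edgeR adjusted p of 0.0537 to 0.0567), as it was with only OPC and postnatal NSC fitted (0.0571). Without adult NSC 2 or 3 or postnatal NSC 2 or 3 the adult call was lost (edgeR adjusted p of 0.0519 to 0.0807).

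Cenpe, the kinetochore kinesin that moves chromosomes to the spindle equator, averaged 121 ± 23.6 CPM in postnatal OPC, 139.7 ± 6.82 CPM in adult NSC and 84.2 ± 11.01 CPM in postnatal NSC. It rose in OPC (log2 fold change 0.52 ± 0.14 SE, edgeR adjusted p = 0.00757) and in adult NSC (log2 fold change 0.73 ± 0.14 SE, edgeR adjusted p = 0.000909), under all 20 alternatives in both. Cenpa, the centromeric histone variant, averaged 76.7 ± 12.1 CPM in postnatal OPC, 88.2 ± 3.18 CPM in adult NSC and 92.2 ± 14.1 CPM in postnatal NSC. It was not called (log2 fold change -0.27 ± 0.13 SE, edgeR adjusted p = 0.103 in OPC, and log2 fold change -0.06 ± 0.13 SE, edgeR adjusted p = 0.684 in adult NSC). It fell in OPC without both postnatal NSC 3 and OPC 2 (log2 fold change -0.27 ± 0.09 SE, edgeR adjusted p = 0.0282). Cenpf, a kinetochore and nuclear matrix protein, was at 172, 130.3, 205 and 210.5 CPM in postnatal OPC 1 to 4, 219, 232, 122 and 130.4 CPM in adult NSC 1 to 4, and 142, 135, 109 and 135 CPM in postnatal NSC 1 to 4. Adult NSC 1 and 2 were the highest of the 12 libraries and adult NSC 3 and 4 were among the lowest, a spread of 32.7% that was the largest of the 42 genes in adult NSC. Cenpf was not called in adult NSC (log2 fold change 0.43 ± 0.22 SE, edgeR adjusted p = 0.108) or in OPC (log2 fold change 0.46 ± 0.22 SE, edgeR adjusted p = 0.0984). It rose in adult NSC without adult NSC 3 and in OPC without OPC 2. Ccnb2, Cdc20, Cenpa and Cenpf are described after their values were seen.

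Neither of the 2 chromosomal passenger genes was called in any of the 3 comparisons with all libraries in the fit. Without both low libraries Birc5 rose in OPC against postnatal NSC (log2 fold change 0.50 ± 0.08 SE, edgeR adjusted p = 0.000484), in adult against postnatal NSC (0.21 ± 0.08, edgeR adjusted p = 0.0395) and in OPC against adult NSC (0.29 ± 0.08, edgeR adjusted p = 0.00849). Aurkb (ENSMUSG00000020897.12, chr11:69045647-69051664) encodes the kinase of that complex. Aurkb was at 69.7, 30.1, 69.5 and 64.03 CPM in postnatal OPC 1 to 4, 61.8, 62.04, 74.9 and 68.8 CPM in adult NSC 1 to 4, and 58.3, 55.7, 34.98 and 71.5 CPM in postnatal NSC 1 to 4. OPC 2 was the lowest of the 12 libraries and the 3 groups overlapped. Its log2 fold change was 0.08 ± 0.25 in OPC against postnatal NSC, 0.28 ± 0.25 in adult against postnatal NSC and -0.20 ± 0.25 in OPC against adult NSC (SE), with edgeR adjusted p-values of 0.816, 0.364 and 0.538. Birc5, which encodes survivin, averaged 72.4 ± 20.5 CPM in postnatal OPC, 67.4 ± 4.42 CPM in adult NSC and 51.5 ± 12.9 CPM in postnatal NSC, and was not called in OPC (log2 fold change 0.49 ± 0.22 SE, edgeR adjusted p = 0.089) or adult NSC (log2 fold change 0.39 ± 0.22 SE, edgeR adjusted p = 0.155).

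Of 5 kinesins of the spindle and chromosomes, Kif11 and Kif15 rose in OPC and Kif11 and Kif18a in adult NSC. Kif11 (ENSMUSG00000012443.4, chr19:37376403-37421859) encodes the motor that pushes spindle poles apart. Kif11 was at 187, 108, 226 and 221 CPM in postnatal OPC 1 to 4, 209, 217, 241 and 209 CPM in adult NSC 1 to 4, and 124, 99.8, 70.1 and 141 CPM in postnatal NSC 1 to 4. All adult libraries and OPC 1, 3 and 4 were above the highest postnatal NSC library. Kif11 rose in OPC (log2 fold change 0.77 ± 0.23 SE, edgeR adjusted p = 0.0172) and in adult NSC (log2 fold change 1.01 ± 0.23 SE, edgeR adjusted p = 0.00348). The OPC call was lost without OPC 3, OPC 4 or postnatal NSC 2, with edgeR adjusted p-values of 0.0511 to 0.0558. It was also lost with only OPC and postnatal NSC fitted (edgeR adjusted p = 0.0531). Kif15, which can stand in for Kif11, averaged 85.2 ± 28.3 CPM in postnatal OPC, 76.4 ± 1.06 CPM in adult NSC and 53.7 ± 13.2 CPM in postnatal NSC. It rose in OPC (log2 fold change 0.67 ± 0.24 SE, edgeR adjusted p = 0.0376), a call lost under 11 of 20 alternatives (edgeR adjusted p of 0.0501 to 0.108), among them leaving out any adult library, OPC 1, 3 or 4, or postnatal NSC 2 or 3. In adult NSC it was not called (log2 fold change 0.51 ± 0.24 SE, edgeR adjusted p = 0.089). It rose there without OPC 2 and with only adult and postnatal NSC fitted. Kif18a (ENSMUSG00000027115.14, chr2:109280738-109341747) encodes a kinesin that damps the movement of chromosomes at the spindle equator. Kif18a was at 42.5, 24.8, 49.05 and 53.5 CPM in postnatal OPC 1 to 4, 63.3, 62.5, 65.1 and 55.6 CPM in adult NSC 1 to 4, and 38.99, 25.1, 21.5 and 34.2 CPM in postnatal NSC 1 to 4. The adult libraries were above every other library. Kif18a rose in adult NSC (log2 fold change 1.04 ± 0.23 SE, edgeR adjusted p = 0.00244), was not called in OPC against postnatal NSC (log2 fold change 0.50 ± 0.23 SE, edgeR adjusted p = 0.0873), and missed the threshold in OPC against adult NSC (log2 fold change -0.54 ± 0.23 SE, edgeR adjusted p = 0.0637) except without OPC 4, without postnatal NSC 3 and under the replicate block, where it fell. Without both low libraries, Kif18a and Kif4 also rose in OPC and Kif15 in adult NSC, each against postnatal NSC. The chromokinesin gene Kif4 and the microtubule depolymerase gene Kif2c were called in neither comparison against postnatal NSC, with log2 fold changes of 0.43 and 0.15 in OPC, and of 0.38 and 0.26 in adult NSC.

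Among the 3 spindle assembly genes, Nusap1 rose in OPC and Hmmr in adult NSC. Nusap1 (ENSMUSG00000027306.15, chr2:119618298-119651244) encodes a protein that binds and bundles spindle microtubules. Nusap1 was at 159, 101, 179 and 177 CPM in postnatal OPC 1 to 4, 109, 121, 120.3 and 103 CPM in adult NSC 1 to 4, and 88.7, 81.8, 70.4 and 113 CPM in postnatal NSC 1 to 4. OPC 1, 3 and 4 were the highest of the 12 libraries, and OPC 2 lay within postnatal NSC and below every adult library. Nusap1 rose in OPC against postnatal NSC (log2 fold change 0.80 ± 0.18 SE, edgeR adjusted p = 0.00313) under all 20 alternatives and was not called in adult NSC (log2 fold change 0.36 ± 0.18 SE, edgeR adjusted p = 0.106). In OPC against adult NSC it had the largest positive difference of the 42 genes (log2 fold change 0.44 ± 0.18 SE, edgeR adjusted p = 0.0542). That difference passed without OPC 2, without postnatal NSC 3, without postnatal NSC 4 and without both low libraries. It also passed under library totals, with only OPC and adult NSC fitted, and with counts thinned to the smallest total. Hmmr, a spindle pole protein that also binds hyaluronan, averaged 90.8 ± 24.7 CPM in postnatal OPC, 122 ± 8.07 CPM in adult NSC and 82.7 ± 22.1 CPM in postnatal NSC. It rose in adult NSC (log2 fold change 0.56 ± 0.21 SE, edgeR adjusted p = 0.0392), a call lost under 8 of 20 alternatives (edgeR adjusted p up to 0.122). These were library totals in place of TMM and leaving out any adult library, OPC 1, postnatal NSC 2 or postnatal NSC 3. Tpx2, which activates Aurora A on the spindle, averaged 239 ± 53.9 CPM in postnatal OPC, 239 ± 14.4 CPM in adult NSC and 193 ± 26.8 CPM in postnatal NSC and was not called, but rose in both OPC and adult NSC against postnatal NSC without both low libraries. It rose in both without OPC 2 alone, and in adult NSC with only adult and postnatal NSC fitted.

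Kif20b, of the central spindle and cytokinesis, had the largest rise of the 42 genes in both comparisons against postnatal NSC. The median log2 fold change of the 7 genes with this role was 0.19 in OPC, the lowest of the 8 roles, and 0.34 in adult NSC. Of these genes, Kif20b and Ect2 rose in OPC, and Kif20b, Ect2 and Anln rose in adult NSC. Kif20b (ENSMUSG00000024795.11, chr19:34922361-34975745) encodes a kinesin needed to complete cytokinesis and known from mouse mutants to matter in the division of cortical neural stem cells. Kif20b was at 53.4, 38.3, 59.1 and 63.03 CPM in postnatal OPC 1 to 4, 60.8, 60.1, 64.8 and 57.9 CPM in adult NSC 1 to 4, and 30.9, 27.2, 19.6 and 34.9 CPM in postnatal NSC 1 to 4. No OPC or adult library was as low as the highest postnatal NSC library. Kif20b rose 1.9-fold in OPC (log2 fold change 0.92 ± 0.18 SE, edgeR adjusted p = 0.00119) and 2.16-fold in adult NSC (log2 fold change 1.11 ± 0.18 SE, edgeR adjusted p = 0.000348), under all 20 alternatives in both. Ect2 (ENSMUSG00000027699.19, chr3:27097222-27153878) encodes the exchange factor that activates RhoA at the equator. Ect2 was at 87.5, 55.2, 94.4 and 99.8 CPM in postnatal OPC 1 to 4, 118, 119, 134 and 110.04 CPM in adult NSC 1 to 4, and 62.04, 52.8, 37.6 and 75.4 CPM in postnatal NSC 1 to 4. The adult libraries were the 4 highest of the 12, and OPC 2 lay among the postnatal NSC libraries. Ect2 rose in adult NSC (log2 fold change 1.08 ± 0.21 SE, edgeR adjusted p = 0.00119) and in OPC (log2 fold change 0.56 ± 0.21 SE, edgeR adjusted p = 0.0418), the OPC call being lost under 14 of 20 alternatives, with edgeR adjusted p-values of 0.0519 to 0.114. It remained called without OPC 2 and without postnatal NSC 4, and was lost without any one of the other 10 libraries.

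Anln (ENSMUSG00000036777.8, chr9:22332012-22389188) encodes anillin, the scaffold of the contractile ring. Anln was at 57.5, 36.2, 60.9 and 63.8 CPM in postnatal OPC 1 to 4, 89.4, 89.3, 97.5 and 87.8 CPM in adult NSC 1 to 4, and 54.5, 45.95, 28.3 and 61.9 CPM in postnatal NSC 1 to 4. The adult libraries stood clear of both other groups, and OPC and postnatal NSC libraries overlapped. Anln rose in adult against postnatal NSC (log2 fold change 0.93 ± 0.22 SE, edgeR adjusted p = 0.00363) and fell in OPC against adult NSC (log2 fold change -0.74 ± 0.22 SE, edgeR adjusted p = 0.0134), both under all 20 alternatives. In OPC against postnatal NSC it was not called (log2 fold change 0.19 ± 0.22 SE, edgeR adjusted p = 0.486). Of the centralspindlin genes, Kif23 averaged 62.3 ± 12.9 CPM in postnatal OPC, 72.2 ± 5.12 CPM in adult NSC and 67.2 ± 13.7 CPM in postnatal NSC. Racgap1 averaged 241 ± 67.6 CPM in postnatal OPC, 225 ± 5.51 CPM in adult NSC and 188 ± 35.5 CPM in postnatal NSC, and neither was called in the 3 comparisons with all libraries. Without both low libraries Racgap1 rose in OPC against postnatal NSC (log2 fold change 0.42 ± 0.08 SE, edgeR adjusted p = 0.000989) and against adult NSC (0.29 ± 0.07, edgeR adjusted p = 0.00587), and Kif20a and Prc1 rose in adult against postnatal NSC. Kif20a and Prc1 did so without OPC 2 alone as well, and Prc1 with only adult and postnatal NSC fitted. Prc1, which bundles the antiparallel microtubules of the midzone, had the smallest spread of the 42 genes in adult NSC, at 203 ± 2.26 CPM, with 159 ± 40.6 CPM in postnatal OPC and 164 ± 24.5 CPM in postnatal NSC, and was not called. Kif20a, a motor of the midzone, averaged 92.7 ± 16.7 CPM in postnatal OPC, 111 ± 4.24 CPM in adult NSC and 87.6 ± 17.1 CPM in postnatal NSC and was not called either. Its counts are uncertain, since 29.3% of its exon length overlaps Cdc23.

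Levels can be compared between genes per length. Averaged over the groups, Cdc20 was at 64.5, Top2a at 59.0, Ccna2 at 55.2, Plk1 at 49.4, Tpx2 at 47.9 and Mki67 at 47.5 CPM per kb of exon, and Kif18a was the lowest at 4.54. Their order differed between groups, with Top2a above Cdc20 in postnatal OPC and adult NSC and below it in postnatal NSC. In postnatal OPC the spread over libraries exceeded the gaps between these neighbours. In postnatal NSC Cdc20 (69.4 ± 15.9) stood above the next gene, Plk1 (46.7 ± 13.7), by more than the SD of either. The gaps between the other neighbours there were within the spread. In adult NSC Top2a, Ccna2 (65.1 ± 4.57) and Cdc20 (65.1 ± 4.80) lay within their spread, so their order is not resolved. Top2a had 66.3 ± 20.9 CPM per kb in postnatal OPC, 66.5 ± 3.09 in adult NSC and 44.3 ± 11.01 in postnatal NSC (SD, n = 4 each). Counts of 10 members are uncertain because over 5% of their exon length overlaps another gene or over 5% of their 50-base stretches occur in one, namely Ccnb1, Ccna2, Plk1, Kif20a, Kif4, Cdc20, Cdc25c, Prc1, Ube2c and Ncapg.

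The 42 genes were low together in postnatal OPC 2 and postnatal NSC 3, and G1/S genes were lower still. In postnatal OPC 2 the level of a member was 40.2% (Cdk1) to 80.5% (Cdc25b) of the mean of the other 3 OPC libraries, with a median of 57.8%, beside 101% over all genes tested. In postnatal NSC 3 it was 50.6% (Plk1) to 88.9% (Cdc25b) of the mean of the other 3 postnatal NSC libraries, with a median of 64.3%, beside 99.5% over all genes. The median was 56.2% and 65.3% over 72 other mitosis genes in the same libraries, and 24.99% and 40.5% over 32 genes of DNA replication and G1/S, all 32 of which were below the other 3 libraries of the group in both. By role, the medians in postnatal OPC 2 were lowest at 47.3% for chromosome structure, 48.4% for chromosomal passengers and 51.3% for kinesins, and highest at 63.3% for mitotic entry and 66.5% for centromere and kinetochore. Across the 42 genes the percentages in the 2 libraries had a Pearson r of 0.56 and a Spearman rho of 0.57 on the log2 scale, which describes these 2 libraries, since the genes share library and normalisation.

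**Figure D5:**
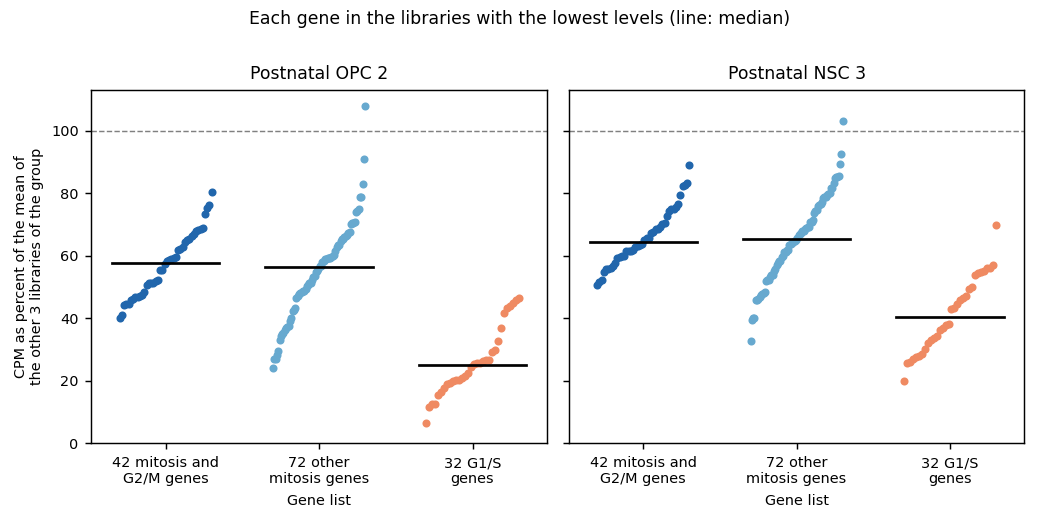
CPM of each gene in postnatal OPC 2 (left) and postnatal NSC 3 (right) as a percent of the mean of the other 3 libraries of its group (y axis), for the 42 genes, 72 other mitosis genes and 32 G1/S genes (x axis), with the median of each list as a line and the level of no difference dashed at 100. All 42 genes are below 100 in both libraries, and the G1/S genes are lowest, with medians of 24.99 and 40.5.

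Markers of cell types differed in the same 2 libraries. In postnatal OPC 2 the summed OPC markers were at 10786 CPM, against 5154 to 5450 CPM in the other OPC libraries, with 9 of 10 markers above all 3 others. Summed markers of mature oligodendrocytes were at 531 CPM, against 258 to 320 CPM, with 3 of 8 above all others, and those of neuroblasts and neurons at 248 CPM, against 92.6 to 141 CPM, with 4 of 8 above all others. NSC markers summed to 5975 CPM, against 8050 to 9249 CPM, with 6 of 10 below all others. In postnatal NSC 3 the mature oligodendrocyte markers summed to 902 CPM, against 329 to 593 CPM in the other postnatal NSC libraries, with 6 of 8 above all others, and the neuroblast and neuron markers to 169 CPM, against 58.3 to 129.8 CPM, with 5 of 8 above. Astrocyte markers summed to 2316 CPM in postnatal NSC 3, against 1387 to 2179 CPM, with 5 of 6 above all others, and to 934 CPM in postnatal OPC 2, against 1198 to 1605 CPM in the other OPC libraries. Endothelial markers summed to 4.63 CPM in postnatal NSC 3, against 9.82 to 15.9 CPM. The part of these cell types in the lower mitosis levels was not tested.

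The wider mitosis programme was described by 72 further genes. In OPC against postnatal NSC, 18 rose and 3 fell (median log2 fold change 0.23), beside 22.4% higher and 22.7% lower over all genes tested. In adult against postnatal NSC 23 rose and 2 fell (0.37), beside 25.2% and 27.9%, and in OPC against adult NSC 3 rose and 7 fell (-0.10), beside 26.3% and 24.7%. Among the largest rises in OPC were Cenpk, of the inner kinetochore (14.1 ± 5.74 CPM in postnatal OPC, against 5.02 ± 1.85 CPM in postnatal NSC; log2 fold change 1.49 ± 0.34 SE, edgeR adjusted p = 0.0038), Esco2 (1.00), a cohesin acetyltransferase, and Lin54 (0.88), a subunit of the MuvB complex that binds the CHR. The largest rises in adult NSC were Depdc1a (log2 fold change 1.34 ± 0.24 SE, edgeR adjusted p = 0.000653), 60.8% of whose stretches are shared with other genes, Cenpk (1.33), Knl1, the kinetochore scaffold (log2 fold change 1.27 ± 0.20 SE, edgeR adjusted p = 0.000307), and Ncapg2 of condensin II (1.18).

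Pttg1, the gene of securin, which holds back the separation of sister chromatids, fell in both comparisons against postnatal NSC. It averaged 25.3 ± 7.76 CPM in postnatal OPC, 11.8 ± 0.809 CPM in adult NSC and 40.7 ± 5.25 CPM in postnatal NSC. Against postnatal NSC the differences were a log2 fold change -0.69 ± 0.20 SE, edgeR adjusted p = 0.0134 in OPC and a log2 fold change -1.78 ± 0.21 SE, edgeR adjusted p = 4.61e-05 in adult NSC. Against adult NSC it rose in OPC (log2 fold change 1.10 ± 0.20 SE, edgeR adjusted p = 0.000778), together with Depdc1b (0.86) and Gas2l3 (0.55). Troap fell in OPC (-0.34) and in adult NSC (-0.47) against postnatal NSC, and Psrc1, a spindle protein gene, fell in OPC against both postnatal NSC (-1.05) and adult NSC (-1.25). The Cdk-binding subunits Cks1b (-0.83) and Cks2 (-0.67) and Gtse1 (-1.06) fell in OPC against adult NSC as well, with edgeR adjusted p-values of 0.00633 to 0.0158.

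Of 32 genes of DNA replication and G1/S, 2 rose in OPC against postnatal NSC (Ccne2 and Gins3), beside 22.4% of all genes tested, and the median log2 fold change of the list was 0.30. In adult against postnatal NSC 3 rose (Slbp in addition, median 0.50), beside 25.2% of all genes tested. None fell in either, and none was called in OPC against adult NSC (-0.23, 0 at an unadjusted p under 0.05 in edgeR). Ccne2, cyclin E2, averaged 33.7 ± 18.2 CPM in postnatal OPC, 38.2 ± 4.83 CPM in adult NSC and 10.9 ± 6.66 CPM in postnatal NSC. Against postnatal NSC the differences were a log2 fold change 1.63 ± 0.54 SE, edgeR adjusted p = 0.0268 in OPC and a log2 fold change 1.81 ± 0.54 SE, edgeR adjusted p = 0.0143 in adult NSC. Gins3, of the helicase complex at replication forks, rose by 0.83 and 0.83 on the log2 scale in OPC and adult NSC, with edgeR adjusted p-values of 0.0289 and 0.0248.

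Among 7 inhibitors of cyclin-dependent kinases, Cdkn1a stood out by its level in adult NSC. Cdkn1a, the gene of the inhibitor that p53 induces, averaged 42.3 ± 11.6 CPM in postnatal OPC, 366 ± 25.1 CPM in adult NSC and 169.7 ± 84.5 CPM in postnatal NSC. Against postnatal NSC the differences were a log2 fold change -2.01 ± 0.33 SE, edgeR adjusted p = 0.000412 in OPC and a log2 fold change 1.11 ± 0.32 SE, edgeR adjusted p = 0.0109 in adult NSC. Its mean was highest in adult NSC, as was the summed level of the 42 genes. Against adult NSC it fell in OPC (log2 fold change -3.12 ± 0.34 SE, edgeR adjusted p = 1.43e-05), with Cdkn2b (-1.70) and Cdkn2a (-1.58). Cdkn1c, which acts in cell cycle exit, averaged 3.80 ± 0.848 CPM in adult NSC, against 25.9 ± 9.40 CPM in postnatal NSC (log2 fold change -2.77 ± 0.33 SE, edgeR adjusted p = 5.43e-05), and 30.7% of its exon length is overlapped by another gene. Cdkn2a rose in adult NSC (log2 fold change 1.05 ± 0.34 SE, edgeR adjusted p = 0.0204), and Cdkn2b fell and Cdkn2d rose in OPC against postnatal NSC (log2 fold changes -1.64 ± 0.22 and 0.49 ± 0.15 SE, edgeR adjusted p of 0.000128 and 0.018). By the same measures of exon overlap and shared stretches, the counts of Cdkn1a, Ccne2, Slbp, Cks1b and Cks2 are uncertain too. In all, of the 7 inhibitors 1 rose and 2 fell in OPC against postnatal NSC, 2 rose and 1 fell in adult against postnatal NSC, and 1 rose and 3 fell in OPC against adult NSC. Over all genes tested, 22.4% rose and 22.7% fell in the first of these comparisons. The shares were 25.2% and 27.9% in the second, and 26.3% and 24.7% in the third.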

How the data were processed

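The 12 libraries were made with a stranded mRNA kit, per the labels' protocols. The authors deposited raw read counts per gene. The tools named, per the submitters' processing notes, are STAR, FastQC and featureCounts 1.22.2, and the genome build is GRCm38. The annotation release and the strand setting of the counting are not given in the sources used here, so overlapping and antisense genes are uncertain. Of 55401 identifiers, 55141 matched GENCODE M21 names, and the 260 others took up 0.00947 to 0.013% of each library's total. The 42 genes and the other gene lists were chosen with earlier results of these data known.

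Genes were filtered with edgeR 4.0.16 (minimum count 10, minimum total 15), scaled by TMM and tested in R 4.3.3 by the quasi-likelihood test in a single fit with a term per group, with Benjamini-Hochberg adjustment over 16135 genes and a threshold of 0.05. The common dispersion was 0.0513, a biological coefficient of variation of 22.6%. The SE is the absolute log2 fold change over the square root of F. CPM values are means ± SD over 4 libraries. The fit was tested on simulated data. Values in each library were given for Mki67, Top2a, Cdk1, Ccnb1, Plk1 and Aurkb and for the called members with the largest changes in each comparison. Alternatives were DESeq2 1.42.0 and, in edgeR, RLE size factors, library totals, no filter, only the 2 groups compared and a replicate block. Further edgeR alternatives were counts thinned to the smallest total, each library left out and both low libraries left out. The 18 pairs of replicates all differed by more than sampling noise (chi-square per degree of freedom of 3.74 to 176). Promoter windows came from RefSeq (GRCm38.p6). Total counts per library were 16756231 to 54801726.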

Additional observations from a re-analysis of the deposited data

Results flagged for a closer look

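In 9 of 126 checks of a gene within a group, 1 library lay far from the other 3, and chance gives such a gap in about 1 in 20 groups. Postnatal OPC 2 was the lowest of its group in 5 of them: Mki67 was at 248 CPM there, against 508 to 551 CPM in the other OPC libraries, Aurka at 33.4 CPM, against 52.4 to 55 CPM, and Aurkb at 30.1 CPM, against 64.0 to 69.7 CPM. Kif23 was at 43.1 CPM in postnatal OPC 2, against 67 to 69.8 CPM, and Ncapg at 36.6 CPM, against 75.3 to 78.4 CPM. Adult NSC 3 was the highest of its group in the other 4. Cdk1 was at 194.8 CPM there, against 175 to 178 CPM in the other adult libraries, and Kif23 was at 79.9 CPM, against 69.1 to 70.1 CPM. Anln was at 97.5 CPM in adult NSC 3, against 87.8 to 89.4 CPM, and Racgap1 at 233 CPM, against 222 to 223 CPM.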

How the results depend on the processing

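In postnatal OPC against postnatal NSC the 11 genes that rose became 4 with only those 2 groups fitted, 7 under the replicate block, 26 without both low libraries and 5 to 25 with 1 library left out, and the 0 that fell became 2 without both and 0 to 2 with 1 left out. In adult against postnatal NSC the 15 that rose became 24 with only 2 groups, 26 without both and 11 to 26 with 1 left out, and 1 fell without both. In postnatal OPC against adult NSC the 0 that rose became 3 under library totals, 1 with only 2 groups, 1 when thinned, 8 without both and 0 to 3 with 1 left out, and the 2 that fell became 1 under library totals, 4 with only 2 groups, 5 without both and 1 to 5 with 1 left out. The replicate block left 15 rising in adult NSC. Over all genes, with only 2 groups fitted, 2843 of 16590 rose in OPC and 4087 of 16227 in adult NSC, each against postnatal NSC. In OPC against adult NSC 4611 of 15383 rose and 4355 fell in that fit. Over 12 pairs of libraries with the same replicate number, deviations from the group means had r of -0.363 to 0.325, with 3 above 0.1. The highest r between libraries of different groups was 0.414, for postnatal OPC 2 and postnatal NSC 3, which bear different numbers. These values cannot show or exclude shared litters, since the labels do not tie litters to numbers. Library totals shifted the median of all genes to -0.12 in adult against postnatal NSC (3333 higher and 5286 lower, against 4065 and 4504) and to 0.08 in OPC against adult NSC (4798 and 3467, against 4242 and 3992), and the adult mean log2 CPM of the 42 genes to 6.78. RLE size factors gave 11, 15, 0 and 2 genes in the same order, and DESeq2 12, 19, 0 and 2.

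Of 32 fold changes of single genes, 27 kept their direction under all 20 alternatives, and those that turned were not called either way. For OPC against postnatal NSC, Plk1 was -0.30 to 0.0011 and Aurkb -0.089 to 0.27 with 1 library left out. For OPC against adult NSC, Top2a was 0.00038 under RLE, 0.061 under library totals, 0.0077 with only 2 groups, 0.0014 when thinned, 0.21 without both low libraries and -0.11 to 0.21 with 1 left out. Without both, Ccnb1 was 0.013 and Aurkb 0.024, and with 1 left out Ccnb1 was -0.26 to 0.014 and Aurkb -0.29 to 0.025. The cause of these changes was not tested. Thinning all libraries to the smallest total left 9 genes rising in OPC against postnatal NSC, with Ect2 (adjusted p = 0.0554) and Nuf2 (0.0564) lost in edgeR.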
